A study of Bos taurus with 16 samples.

Results

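The 6 genes described here are INHA, INHBA and INHBB, which encode the subunits of inhibin and activin, FST and FSTL3, which encode the activin-binding proteins follistatin and follistatin-like 3, and AMH, which encodes anti-Müllerian hormone. They were chosen by name, and all 6 were found among the 12429 genes with a symbol (20629 features in all). RNA was sequenced from 16 bovine libraries, 9 labelled control and 7 labelled treatment, from cells aspirated from the dominant follicle of lactating Holstein cows at 63 ± 3 days after calving. All cows came from a cohort of 45 whose follicles were synchronised with gonadotropin-releasing hormone (GnRH) and prostaglandin F2α, and aspiration preceded the second GnRH injection, which was due 72 h after the prostaglandin. The series title asks about the granulosa transcriptome after uterine disease has resolved, and cows with metritis, an infection of the uterus, received ceftiofur. The labels neither say what treatment stands for nor tie a library to a cow or its disease, so the groups are named here as labelled, and p-values measure the spread between libraries. The tissue field reads blood in all 16 libraries, while the protocol describes pelleted and washed granulosa cells.

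Inhibins and activins are dimers of the transforming growth factor beta (TGF-beta) superfamily. The alpha subunit, from INHA, joins a beta subunit to form inhibin, which reaches the pituitary and lowers the release of follicle-stimulating hormone (FSH). Beta subunits that pair with each other form activins (beta A from INHBA, beta B from INHBB), which act locally through activin receptors and Smad proteins and raise FSH release. Follistatin and follistatin-like 3 bind activin and keep it from its receptors. Granulosa cells make inhibin, activin and follistatin as a follicle becomes dominant, and AMH, made by granulosa cells of growing follicles, dampens the recruitment and FSH response of other follicles.

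The libraries were of 2 kinds, which the genes CYP11A1 and CD14 separated. CYP11A1 makes pregnenolone from cholesterol, and CD14 is a receptor of monocytes and macrophages. In 9 libraries, called granulosa-rich, CYP11A1 lay between 2439 and 6560 CPM (counts relative to the library total, with edgeR's TMM factor applied) and CD14 between 5.51 and 302 CPM. They comprised 5 of the control group (replicates 2, 3, 4, 7 and 8) and 4 of the treatment group (replicates 4, 5, 6 and 7). In the other 7, called leukocyte-rich, CYP11A1 lay between 2.73 and 229 CPM and CD14 between 1663 and 3946 CPM. The kinds are not groups of the study and were set by expression, so values are set side by side by kind with no test. The summed level of 14 granulosa markers ranged from 23042 to 108599 CPM in the granulosa-rich and from 242 to 3173 CPM in the leukocyte-rich libraries. That of 10 pan-leukocyte markers ranged from 19.2 to 838 CPM and from 4691 to 6850 CPM. The granulosa list holds CYP11A1, so its sum is not independent of how the kinds were set. Many of its genes overlapped between the kinds, namely CYP19A1, CDH2, HSD3B1, SLC35G1, NR5A2, GATA4, AMHR2 and FDX1. FDX1 lay at 133 to 1486 CPM against 174 to 520 CPM. CYP19A1 lay at 277 to 29618 CPM against 1 to 919 CPM, with its lowest granulosa-rich value in treatment replicate 7. AMHR2 was lowest in that library too, at 0.867 CPM, where the leukocyte-rich libraries reached 2.1 CPM. Totals ranged from 8111862 to 14348753 counts per library, and 3 counts correspond to at most 0.374 CPM.

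**Figure D1:**
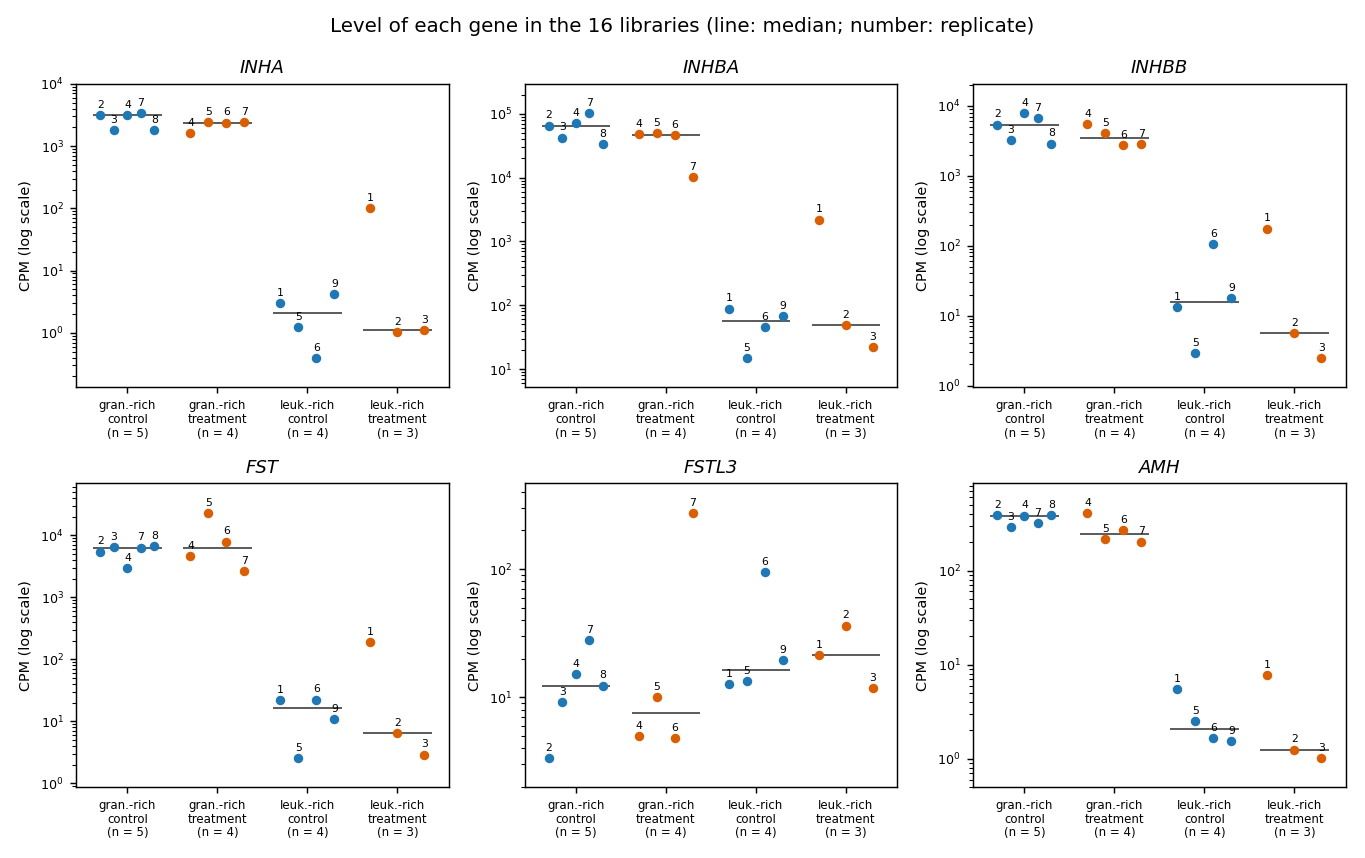
Level of each gene in CPM (vertical axis, log scale) in each library, split by kind of library and by label; points are libraries, numbers are replicates and lines are medians. INHA, INHBA, INHBB, FST and AMH are higher in every granulosa-rich library than in any leukocyte-rich library, while FSTL3 overlaps and stands at 275 CPM in treatment replicate 7. Genes outside the 6, such as GJA1 and LAPTM5, also separate the kinds, which were set by expression. The share of all features that do so is not given here.

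INHA, the subunit that makes a dimer an inhibin, varied least of the 3 subunits among the granulosa-rich libraries. It lay at 3152, 1812, 3184, 3398 and 1823 CPM in granulosa-rich control replicates 2, 3, 4, 7 and 8, while it lay at 1602, 2455, 2380.03 and 2400.1 CPM in treatment replicates 4, 5, 6 and 7. The highest value was 2.12 times the lowest, and 3 of the 4 treatment values lay inside the control range, with replicate 4 below it. In the leukocyte-rich libraries INHA lay at 2.98, 1.25, 0.395 and 4.2 CPM in control replicates 1, 5, 6 and 9, and at 99.7, 1.03 and 1.11 CPM in treatment replicates 1, 2 and 3. The lowest granulosa-rich library was 16.1 times the highest leukocyte-rich one, treatment replicate 1. In these bulk samples fewer granulosa cells and less RNA per granulosa cell cannot be told apart.

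INHBA, the beta A subunit, took more counts than any other feature in 6 of the 9 granulosa-rich libraries, and between 3.54 and 6.67% of all transcript counts in 8 of them. In the ninth, treatment replicate 7, it took 1.02% (Wilson 95% interval 1.02 to 1.03%, counting error only) and ranked 8th. Its levels were 65346, 42216, 72007, 102646 and 33388 CPM in control replicates 2, 3, 4, 7 and 8, and 48028, 50149.7, 45703 and 10254 CPM in treatment replicates 4, 5, 6 and 7. Treatment replicates 4 to 6 lay within the control range and replicate 7 lay below all other granulosa-rich libraries. Among the leukocyte-rich libraries, treatment replicate 1 stood at 2203 CPM and the other 6 between 14.9 and 88.9 CPM. Of the INHBA counts, 99.3% were assigned to the accession XM_005205620.3 and 0.696% to NM_174363.2, and how reads shared by both were assigned is not given in the sources used here. MIR11996 overlaps INHBA in RefSeq's gene table of ARS-UCD2.0, and since the kit does not mark strand, reads of overlapping transcripts cannot be told apart.

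INHBB, the beta B subunit, lay at 5371, 3237, 7869, 6683 and 2877 CPM in the 5 granulosa-rich control libraries and at 5394, 4014, 2721 and 2864 CPM in the 4 treatment libraries, in the order of replicates given above. Its highest value was 2.89 times its lowest, and in treatment replicate 7 it was among the low values without standing apart. In the leukocyte-rich libraries INHBB lay between 2.48 and 17.8 CPM, except for control replicate 6 at 104 CPM and treatment replicate 1 at 175 CPM. The 2 exceptions differed in INHA, which was 0.395 CPM in control replicate 6 and 99.7 CPM in treatment replicate 1.

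FST, which encodes follistatin, was at granulosa-rich control levels of 5498, 6411, 3001, 6377 and 6769 CPM and at treatment levels of 4700.04, 23265, 7994 and 2661 CPM. The highest library, treatment replicate 5, held 8.74 times the lowest, treatment replicate 7, and without the highest that ratio was 3. Control replicate 4, at 3001 CPM, was the lowest of its group. The leukocyte-rich libraries lay between 2.59 and 22.4 CPM, with treatment replicate 1 at 193 CPM.

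FSTL3, a relative of follistatin that also binds activin, was scarce and did not follow the kind of library. The granulosa-rich control libraries held 3.37, 9.21, 15.1, 27.8 and 12.3 CPM, and treatment replicates 4, 5 and 6 held 5.01, 10.05 and 4.78 CPM. Treatment replicate 7 held 275 CPM, 81.6 times the lowest granulosa-rich library, where the next highest held 8.25 times the lowest. Leukocyte-rich libraries held between 11.7 and 36.3 CPM, with control replicate 6 at 94.7 CPM. FSTL3 varied more among granulosa-rich libraries (SD of log2 CPM 1.89, n = 9) than the other 5 genes did (0.38 to 0.93, n = 9).

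AMH lay at 387, 292, 384, 318 and 388 CPM in the granulosa-rich control libraries and at 412, 217, 271 and 203 CPM in the treatment libraries. Its highest value was 2.03 times its lowest. In treatment, replicate 4 was the highest of the 9 libraries while replicates 5, 6 and 7 were below every control library. In the leukocyte-rich libraries it lay between 1.03 and 7.76 CPM. AMH lies between SF3A2 and JSRP1 in RefSeq's gene table of ARS-UCD2.0, which lists no gene that overlaps it.

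Treatment was then compared with control. Over all 16 libraries none of the 6 genes passed edgeR's quasi-likelihood test at an adjusted p of 0.05, and of the 9653 features tested 0 passed (0%) and 163 (1.69%) had an unadjusted p under 0.05. As alternatives, limma-voom called 0 features (88 at an unadjusted p under 0.05) and DESeq2 called 3. The log2 fold changes, treatment minus control, were -0.22 ± 1.6 (SE) for INHA, -0.66 ± 1.6 for INHBA and -0.43 ± 1.45 for INHBB. They were 0.85 ± 1.55 for FST, 1.2 ± 0.85 for FSTL3 and -0.32 ± 1.3 for AMH (n = 9 and 7). Both groups held both kinds of library. The mean log2 CPM of INHA, for example, came to 6.64 ± 5.64 over the 9 control libraries and 7.35 ± 5.14 over the 7 treatment libraries (SD), a difference of means opposite in sign to the fitted value. When library kind was added to the model, INHA was at 1.62, INHBA at 1.4 and INHBB at 0.11, none of which passed.

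Among the 9 granulosa-rich libraries the errors were smaller, except that of FSTL3, which was larger, and again none of the 6 passed. Of the 9272 features tested there, 0 passed (0%) and 433 (4.67%) had an unadjusted p under 0.05, and none of the 6 was among those 433. There limma-voom called 0 (412 at an unadjusted p under 0.05) and DESeq2 called 14. The control mean of INHA was 11.33 ± 0.46 log2 CPM (SD, n = 5) and its treatment mean 11.09 ± 0.3 (SD, n = 4), and the log2 fold change from the fit was -0.28 ± 0.27 (SE). For INHBA the means were 15.83 ± 0.64 and 14.99 ± 1.11, with a fold change of -0.71 ± 0.48, which was -0.4 without treatment replicate 7. For INHBB they were 12.24 ± 0.64 and 11.82 ± 0.46, with a fold change of -0.48 ± 0.35. For AMH they were 8.46 ± 0.19 and 8.05 ± 0.46, with a fold change of -0.38 ± 0.25. The AMH value was -0.63 without treatment replicate 4, with an unadjusted p of 0.0246 (edgeR) that did not pass over all features. The adjusted p was 0.983 for each of the 6 genes (edgeR). The groups overlapped for all 6 genes.

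The binding proteins had higher fitted values in treatment, and in each case 1 library set the sign. The control mean of FST was 12.4 ± 0.49 log2 CPM (SD, n = 5) and its treatment mean 12.76 ± 1.33 (SD, n = 4). FST had a fold change of 0.77 ± 0.56 (SE) that became -0.16 without treatment replicate 5. For FSTL3 the means were 3.47 ± 1.11 and 4.02 ± 2.77, with a fold change of 2.41 ± 1.17 that became -1.04 without treatment replicate 7. DESeq2, used as an alternative, gave FSTL3 no p-value in these libraries. Summed monocyte and macrophage markers (10 genes) lay between 22.4 and 615 CPM in the 5 control and between 328 and 1604 CPM in the 4 treatment libraries, and with the mean of the pan-leukocyte markers as a covariate FST was at 0.8 and FSTL3 at 2.13.

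**Figure D2:**
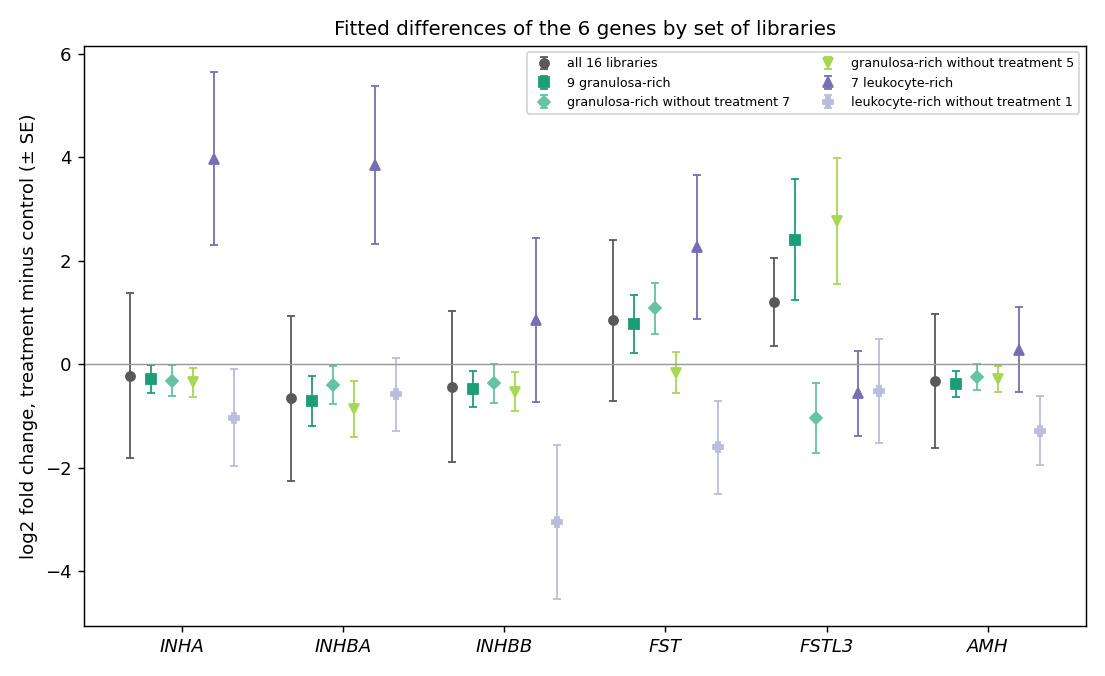
Fitted log2 fold change of treatment against control (vertical axis) with its standard error for each gene, in all 16 libraries, in each kind of library and with single treatment libraries left out. FSTL3 moves from 2.41 to -1.04 without treatment replicate 7, FST from 0.77 to -0.16 without treatment replicate 5, and INHA in leukocyte-rich libraries from 3.97 to -1.03 without treatment replicate 1.

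In the 7 leukocyte-rich libraries the sign of each fitted value also rested on 1 library, treatment replicate 1 for 5 of the genes and control replicate 6 for FSTL3. Fitted log2 fold changes were 3.97 ± 1.67 (SE) for INHA and 3.85 ± 1.52 for INHBA, with unadjusted p of 0.0482 and 0.039 and an adjusted p of 1 (edgeR, n = 4 and 3). Of the 9912 features tested 0 passed (0%) and 259 (2.61%) had an unadjusted p under 0.05, while limma-voom called 0 (277 at an unadjusted p under 0.05) and DESeq2 1. FST was at 2.26 ± 1.39, INHBB at 0.86 ± 1.58, AMH at 0.28 ± 0.82 and FSTL3 at -0.56 ± 0.82. Without treatment replicate 1 INHA was at -1.03, INHBA at -0.58, INHBB at -3.05, FST at -1.6 and AMH at -1.28, while FSTL3 was at -0.52. Without control replicate 6, which held 94.7 CPM of FSTL3, FSTL3 was at 0.61. In treatment replicate 1 the summed granulosa markers stood at 3173 CPM, the highest of the 7, with CYP19A1 (aromatase, which makes oestradiol) at 919 CPM.

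Whether the difference between treatment and control itself differed between the 2 kinds was tested by an interaction term over all 16 libraries. The log2 fold change in granulosa-rich minus that in leukocyte-rich libraries was -4.21 ± 1.48 (SE) for INHA and -4.52 ± 1.48 for INHBA, with unadjusted p of 0.0122 and 0.00775 and adjusted p of 0.911 and 0.907 (edgeR). Of 11468 features 0 passed (0%) and 609 (5.31%) had an unadjusted p under 0.05, and DESeq2 called 20. Without treatment replicate 1 the values were 0.72 and -0.15. INHBB, FST, AMH and FSTL3 were at -1.29, -1.41, -0.6 and 3.03, and none passed.

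Ratios of counts within a library do not depend on the scaling. The ratio depends on the lengths of the transcripts, so it is compared between libraries and not read as a ratio of molecules. The INHBA to INHA ratio lay between 18.3 and 30.2 in 8 of the 9 granulosa-rich libraries and at 4.27 in treatment replicate 7. In that library INHA and INHBB lay within the range of the other 8 and INHBA lay below it, and the INHBB to INHBA ratio there was 0.279 against 0.0595 to 0.112 in the other 8. The FST to INHBA ratio lay between 0.0417 and 0.203 in control and at 0.0979, 0.464, 0.175 and 0.26 in treatment replicates 4, 5, 6 and 7. Treatment replicate 5 had the most FST of the 9 libraries, and treatment replicate 7 the least INHBA.

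In none of 5 such ratios did treatment and control differ beyond the library spread (two-sided exact permutation test, smallest possible p 0.00794). For FST to INHBA the control log2 ratio was -3.44 ± 0.93 (SD, n = 5) and the treatment log2 ratio -2.23 ± 0.95 (SD, n = 4). The difference of 1.21 had p = 0.0952 by the exact permutation test, or 0.476 adjusted over the 5 ratios. Left-out libraries gave differences from 0.83 to 1.58. For INHBA to INHA the log2 ratio was 4.51 ± 0.27 and 3.9 ± 1.24 (difference -0.6, exact permutation p = 0.357), and the difference was 0 without treatment replicate 7. The INHBB to INHA, INHBB to INHBA and FSTL3 to INHBA ratios had adjusted exact permutation p of 0.643 each.

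**Figure D3:**
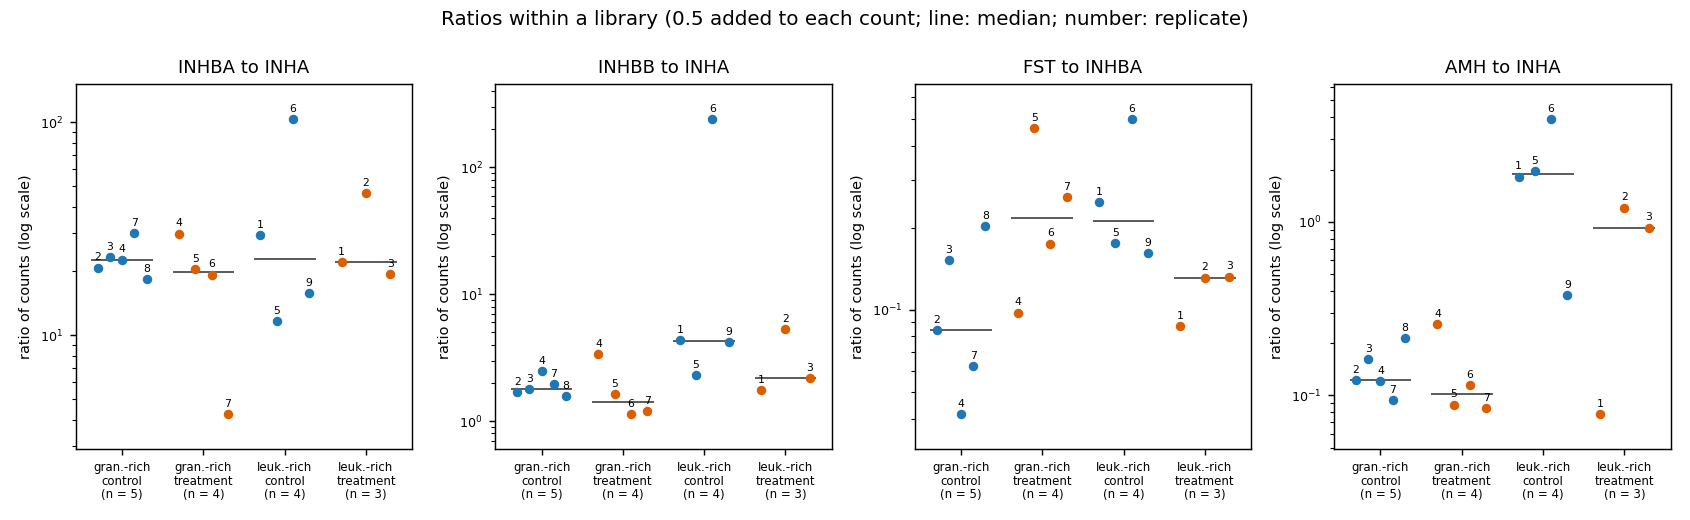
Ratio of the counts of 2 genes within each library (vertical axis, log scale, 0.5 added to each count), by kind of library and label; points are libraries, numbers are replicates and lines are medians. Treatment replicate 7 stands low for INHBA to INHA at 4.27, control replicate 6 stands high for INHBB to INHA, and 5 of the 7 leukocyte-rich libraries, treatment replicate 1 at 22.1 among them, lie inside the granulosa-rich range for INHBA to INHA. Control replicates 5 and 9 lie inside it only because treatment replicate 7 extends that range.

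The same ratios were taken in the leukocyte-rich libraries. In treatment replicate 1 the INHBA to INHA ratio was 22.1 (exact 95% interval from counts 20.7 to 23.6, counting error only), the INHBB to INHA ratio 1.75 (1.62 to 1.89) and the FST to INHBA ratio 0.0874 (0.0834 to 0.0916), each inside the range of the granulosa-rich libraries. Control replicate 5, at 11.9, 2.33 and 0.173, and treatment replicate 3, at 20.0, 2.23 and 0.131, also lay inside all 3 ranges, on 15 and 13 counts of INHA. For control replicate 5 the ratio of 11.9 was inside only because treatment replicate 7, at 4.27, extends the range. The other granulosa-rich libraries lay between 18.3 and 30.2. In treatment replicate 1 the AMH to INHA ratio of 0.0778 (0.061 to 0.0981) lay below their lowest value, 0.0847, which its interval held. In control replicate 6, 1322 counts of INHBB stood against 5 of INHA, a ratio of 264 (113 to 816), where the granulosa-rich libraries lay between 1.14 and 3.37. The same library held 284 counts of FST and 1198 of FSTL3, and CYP11A1 at 167 CPM with CYP19A1 at 2.29 CPM. INHBB and FSTL3 were higher there than in the other 3 leukocyte-rich control libraries, whereas INHA was the lowest of the 4. In the leukocyte-rich libraries other than treatment replicate 1, AMH stood at 0.368 to 4.2 counts per count of INHA, against 0.0847 to 0.257 in the granulosa-rich ones, on 12 to 75 counts of AMH and 5 to 41 of INHA.

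Treatment replicate 7 differed from the other granulosa-rich libraries in other genes too. CYP19A1 stood at 277 CPM against 7687 to 29618 CPM in the other 8, and FSHR, the receptor of FSH, at 110 CPM against 322 to 586 CPM. CYP11A1, at 2640 CPM, lay within their range. Of the genes that follicles are known to raise after the surge of luteinising hormone (LH), AREG, an epidermal growth factor-like ligand, stood at 942 CPM against 0.885 to 70.3 CPM, and TNFAIP6, a protein of the cumulus matrix, at 25591 CPM against 58.7 to 11075 CPM. Of the 11 measured genes of that list, 5 (AREG, BTC, HAS2, PTX3 and TNFAIP6) were highest of the 9 libraries in treatment replicate 7. The share of all features highest in that library is not given here, so the count is not read as particular to the list. ADAMTS1 at 604 CPM, SNAP25 at 3.7 CPM and RUNX1 at 0.236 CPM lay within the range of the other 8 libraries. Another 3 genes of the list lay below every granulosa-rich control library in treatment replicate 7. They were CEBPB at 43.2 CPM (control 118 to 367), EGR1 at 659 CPM (control 728 to 5378) and NR4A1 at 6.78 CPM (control 8.64 to 213). The same held in treatment replicates 4, 5 and 6, so these 3 genes did not set replicate 7 apart. How many of all features lay so is not given here, so the gap is not read as particular to these genes. There CEBPB lay at 54.7, 25.3 and 53.7 CPM, EGR1 at 498, 692 and 63.7 CPM and NR4A1 at 1.6, 0 and 1.42 CPM. TNFAIP6 was also high in control replicates 4 and 7, at 11063 and 11075 CPM, the 2 libraries with the most INHBA, with CYP19A1 at 27271 and 23172 CPM. Summed endothelial markers (7 genes) were 136 CPM in treatment replicate 7 against 5.08 to 31.7 CPM in control. KDR at 97 CPM and VWF at 36.8 CPM made up nearly all of that sum. The rest of the list was low in that library, with TEK at 1.26, CLDN5 at 0.394, EMCN at 0.158, and PECAM1 and CDH5 at 0 CPM. The part of these in the FSTL3 and INHBA values was not tested.

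**Figure D4:**
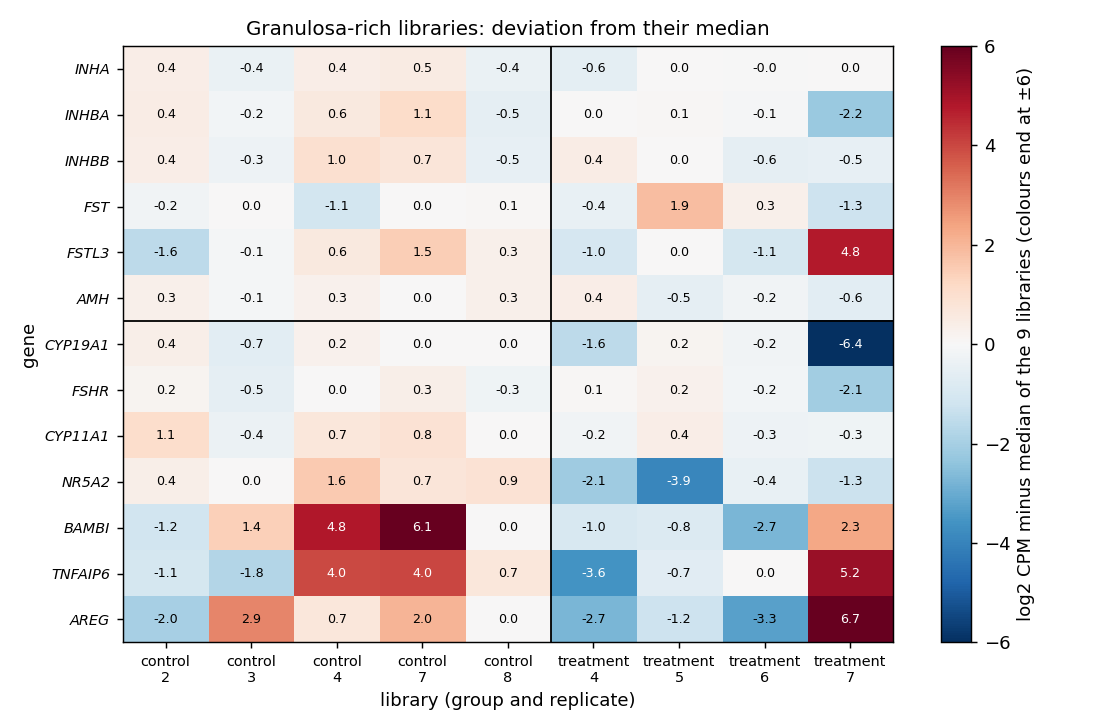
Log2 CPM of each gene (vertical axis) in each granulosa-rich library (horizontal axis) minus the median of the 9, with the value printed and coloured. Treatment replicate 7 combines low INHBA and CYP19A1 with high FSTL3, TNFAIP6 and AREG, while INHA lies at its median of 2400.1 CPM there; colours end at ±6.

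How the 6 genes varied with each other was examined over the 9 granulosa-rich libraries for all 15 pairs. None passed after adjustment (exact permutation test, lowest adjusted p 0.216 for r and 0.124 for rho). INHBA and INHBB had the highest correlation of log2 CPM, Pearson's r = 0.71 (exact permutation p = 0.0144) and Spearman's rho = 0.83 (exact permutation p = 0.00827). Without control replicate 7 and treatment replicate 7, the 2 farthest from the median of INHBA, r was 0.85. INHA and INHBA had r = 0.42 (exact permutation p = 0.269) and rho = 0.72 (exact permutation p = 0.0369). For that pair r was 0.38 without control replicate 7 and treatment replicate 4, the 2 libraries farthest from the median of INHA. Library size alone as the scaling gave r = 0.08 for INHA and INHBA and 0.6 for INHBA and INHBB, so the relation of INHA and INHBA changed with the scaling. FST and AMH had r = -0.3 (exact permutation p = 0.46) and rho = -0.17 (exact permutation p = 0.678), and r = -0.62 without treatment replicates 5 and 7, the 2 farthest from the median of FST. Without treatment replicate 7, the only library left out singly for the correlations, 3 pairs passed, each with an adjusted exact permutation p of 0.0477. They were INHA and INHBA (r = 0.84), INHBA and INHBB (r = 0.83) and FST and AMH (r = -0.85), and with library size alone and the same library left out these 3 were at 0.54, 0.66 and -0.38.

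**Figure D5:**
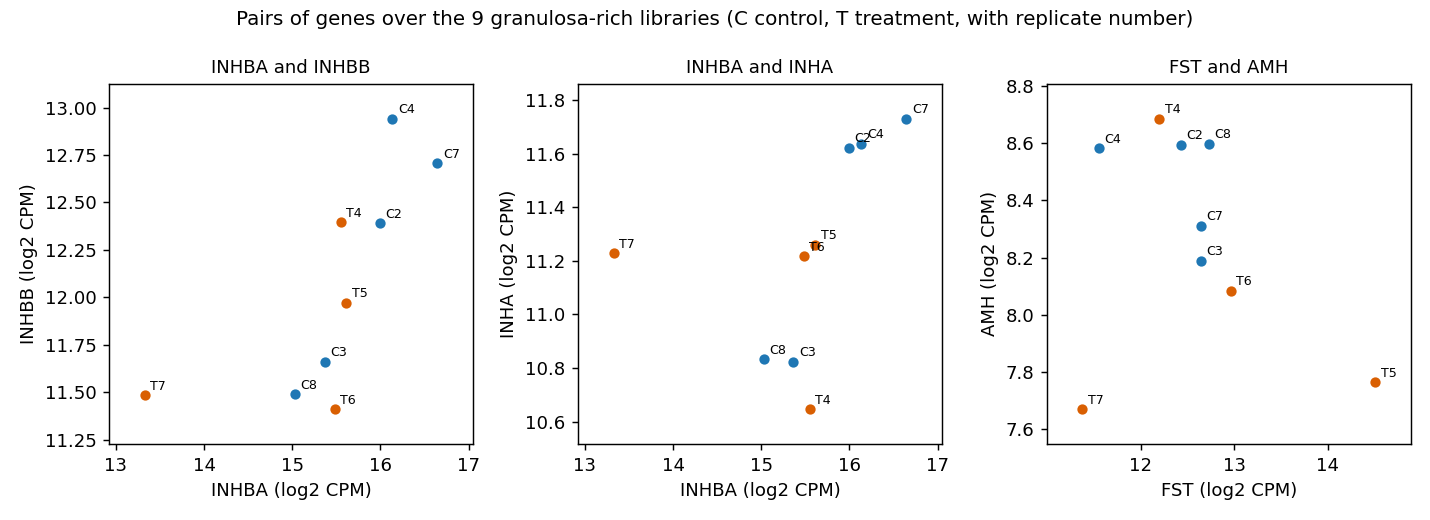
Log2 CPM of 2 genes against each other over the 9 granulosa-rich libraries for 3 pairs; points are libraries, labelled C for control and T for treatment with the replicate number. INHBA and INHBB have r = 0.71, T7 lies far to the left in both INHBA panels, and T5 lies far to the right for FST.

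The genes whose log2 CPM followed each gene most closely over these 9 libraries were taken from 6270 genes with a symbol. These are descriptions from 9 points that share depth and scaling. INHBA was followed by FITM2, a fat storage protein, at r = 0.976, by SNX24 at 0.961 and by SCD, a fatty acid desaturase, at 0.95. Without treatment replicate 7 they were at 0.91, 0.84 and 0.8. INHBB was followed by the chaperone HSPA8 at 0.892, by CCND2, a cyclin of granulosa proliferation, at 0.883 and by EMC10 at 0.873. FST was followed by KLK1 at 0.966, TLR6 at 0.964 and NDUFB6 at 0.934. FST stood at 23265 CPM in treatment replicate 5 against at most 7994 CPM in the other libraries. The values of r without that library are not given here. FSTL3 was followed by PCOLCE2, an enhancer of procollagen processing, at 0.95, by CHMP4B at 0.934 and by GALNT1 at 0.932, and without treatment replicate 7 these were at 0.85, 0.87 and 0.7. INHA was followed by DNAJC24 at 0.954, CMTM6 at 0.927 and PMPCB at 0.92, and AMH by C3H1orf43 at 0.943, U2AF1 at 0.928 and MTMR2 at 0.922.

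Other genes of the pathway were taken from lists of receptors, Smads, regulators and related ligands, and none passed in any of the 3 comparisons of treatment with control. Of 9 measured activin receptor and Smad genes, 7 were tested in the granulosa-rich libraries, 4 with higher and 3 with lower fitted values in treatment (median log2 fold change 0.03, against 0.04 over all features tested). ACVR2A, the type II receptor that binds activin, lay between 13 and 56.9 CPM in the granulosa-rich libraries, and SMAD4, the Smad shared by all branches, between 40.6 and 167 CPM. SMAD4 was at 0.54 ± 0.43 (SE) with the highest level in treatment replicate 5, the library with the most FST. BAMBI, a decoy receptor of the family, was the most variable and had an unadjusted p of 0.0413 (edgeR, adjusted p 0.983) at -3.67 ± 1.58 (SE). It lay at 690 and 1639 CPM in control replicates 4 and 7 and between 3.63 and 123 CPM in the other 7.

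On the AMH side, 9 of 11 measured genes were tested in the granulosa-rich libraries, 3 higher and 6 lower (median -0.09). AMHR2, the receptor of AMH, lay between 10.9 and 31.1 CPM in 8 of these libraries and at 0.867 CPM in treatment replicate 7. BMPR1B and ACVR1, type I receptors of the bone morphogenetic protein branch, were at -1.4 ± 0.69 and -1.49 ± 0.96 (SE), and ID3, a target of that branch and the most abundant of the list, was at 0.44 ± 1.09. ID3 lay between 115 and 228 CPM in 6 of the 9 libraries and at 24.9, 5.61 and 1.42 CPM in control replicates 4 and 7 and treatment replicate 7. These 3 libraries also had the highest TNFAIP6.

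Of the regulators of the inhibin and AMH genes, 6 of 8 measured were tested there, 3 higher and 3 lower (median 0). NR5A2, an orphan nuclear receptor of granulosa cells that binds the same DNA motif as NR5A1, lay at 39.1, 30.2, 89.5, 49.8 and 55.1 CPM in the granulosa-rich control libraries and at 6.91, 1.89, 22.2 and 12.4 CPM in the treatment libraries. The highest treatment value lay under the lowest control value, as it also did for CEBPB, EGR1 and NR4A1 of the LH response list. The share of all features without overlap in these libraries is not given here, so the gap is not read as particular to these genes. The fitted log2 fold change was -2.28 ± 0.63 (SE), with an unadjusted p of 0.00438 and an adjusted p of 0.983 (edgeR), so it did not pass over all features. NR5A1 was at 0.29 ± 0.38 (SE) and FSHR, the most abundant of the list, at -0.22 ± 0.4.

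Among 13 measured ligands and binding proteins of the family, 6 were tested in the granulosa-rich libraries, 4 higher and 2 lower (median 0.24). TGFB1, which leukocytes make, lay between 2.06 and 44.3 CPM there and between 190 and 404 CPM in the leukocyte-rich libraries, and was at 0.97 ± 0.79 (SE). BMP7 was at -2.16 ± 1.58 (SE) and at most 7.72 CPM. INHBE, a further beta subunit, had no counts in the granulosa-rich libraries, which allows at most 0.374 CPM in each. Of the LH response list, CEBPB and NR4A1 had the lowest unadjusted p of 0.000135 and 0.000979 (edgeR, adjusted p 0.983 each), at -2.23 ± 0.38 and -5.51 ± 1.22 (SE). CEBPB, a transcription factor of ovulation, lay between 118 and 367 CPM in control and between 25.3 and 54.7 CPM in treatment. Of the 10 LH response genes tested, 5 had higher and 5 lower fitted values (median -0.29).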

How the data were processed

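Poly(A) RNA from 200 ng of total RNA (integrity number at least 7) was made into libraries with 12 cycles of amplification and a kit that does not mark strand, per the labels' protocols. The authors deposited raw counts of reads per RefSeq accession, 1 table per library. The submitters' processing notes name Bowtie2, SAMtools and cutadapt. Build, annotation, versions and counting rule: not given in the sources used here. Accessions without a line were taken as 0, and genomic records were left out. Versions were ignored in matching 18973 of 27173 accessions to symbols of RefSeq's table of ARS-UCD2.0, and counts were summed per gene. Depth was 8111862 to 14348753 counts per library, and floors of 3 counts cover counting error only.

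Treatment and control were compared with edgeR 4.0.16 in R 4.3.3 (quasi-likelihood, robust, TMM scaling, filter by group, Benjamini-Hochberg over all features, threshold 0.05), tested on simulated data. Standard errors are the fold change divided by the root of F. Log2 CPM uses a prior count of 1. Libraries with more CYP11A1 than CD14 CPM were called granulosa-rich. The 6 genes, the lists and the kinds were chosen with earlier results of these data known. Also named are, per pathway list, the 2 genes of lowest p and the most abundant, and the 3 genes most correlated with each of the 6. ACVR2A, AMHR2, INHBE and the LH response genes of treatment replicate 7 were named after their values were seen. Alternatives were other scalings and filters, DESeq2 1.42.0, limma-voom (limma 3.58.1), covariates, the replicate block, counts per accession, another threshold and each library left out. For the correlations only treatment replicate 7 was left out singly. No sequence is printed, as none was used here.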

Additional observations from a re-analysis of the deposited data

Results flagged for a closer look

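Of 40 groups of libraries examined, 5 held a library whose gap to its neighbour was large against the range of its group. Chance gives about 1 in 20. The gaps were taken on log2 values, while CPM and count ratios are printed here, and flags on that scale would differ. FSTL3 in treatment replicate 7, at 275 CPM against 4.78 to 10.05 CPM in the other granulosa-rich treatment libraries, was not among the 5. Among the 4 granulosa-rich treatment libraries, INHBA stood low in replicate 7 at 10254 CPM, and the FSTL3 to INHBA count ratio stood high in the same library at 0.0268. INHA stood low in treatment replicate 4 at 1602 CPM, where the other 3 lay between 2380 and 2455 CPM. Among the 5 granulosa-rich control libraries, FST stood low in replicate 4 at 3001 CPM, and the FSTL3 to INHBA ratio stood low in replicate 2 at 5.22e-05.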

How the results depend on the processing

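No feature passed with edgeR in any alternative fitted with it, nor with limma-voom in the 3 comparisons of treatment with control. DESeq2 called 3 features over all 16 libraries, 14 in the granulosa-rich, 1 in the leukocyte-rich libraries and 20 for the difference between kinds, and none of the 6 genes that it gave an adjusted p. It gave none to FSTL3 in the granulosa-rich libraries and for the difference between kinds, nor to INHA, INHBA, INHBB and FST in the leukocyte-rich ones. For the difference between kinds it gave INHA an adjusted p of 0.248 and INHBA one of 0.147. Over all 16 libraries signs turned for INHA (0.74) and INHBA (0.35) with limma-voom, and for FSTL3 with DESeq2 (-0.62). With the pan-leukocyte score as a covariate INHA, INHBA, INHBB and AMH were at 1.77, 1.53, 0.73 and 0.63, and with library kind INHA, INHBA and INHBB at 1.62, 1.4 and 0.11. The replicate block gave 0.62 for INHA and 0.23 for INHBB over 16 libraries. It gave -0.31 for FST in the granulosa-rich ones, with 0 calls in both sets. In the granulosa-rich ones only numbers 4 and 7 occur in both groups, so the fold change there rests on these. That fit leaves few libraries to measure the spread by, so its lack of calls decides nothing. Deviations of same-numbered libraries from their group means held the library kind (correlation 0.37 to 0.64 where both were of 1 kind, otherwise -0.66 to -0.35). With the kind removed too, the 3 numbers whose libraries were of 1 kind gave -0.17, -0.17 and 0.23, so the data did not show that the numbers pair the samples, and the labels do not say so. No paired analysis was possible in the leukocyte-rich libraries because the groups share 1 number there. In the leukocyte-rich libraries limma-voom gave -0.41 for INHBB and -0.33 for AMH. The cause was not tested.

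Leaving out single libraries gave, over all 16, -0.49 to 0.05 for INHA, -0.3 to 1.08 for FST and -0.63 to 1.87 for FSTL3. In the granulosa-rich libraries FST ranged from -0.16 to 1.08 and FSTL3 from -1.04 to 2.89. In the leukocyte-rich libraries INHA ranged from -1.03 to 4.54, INHBA from -0.58 to 4.4, INHBB from -3.05 to 2.43, FST from -1.6 to 2.79, FSTL3 from -1.05 to 0.61 and AMH from -1.28 to 0.81. The difference between kinds ranged from -4.83 to 0.72 for INHA, -2.9 to 2.59 for INHBB, -2.37 to 2.43 for FST, -0.43 to 3.53 for FSTL3 and -1.15 to 0.91 for AMH. Differences of log2 ratios ranged from -0.94 to 0 (INHBA to INHA), -0.03 to 0.72 (INHBB to INHBA) and -0.53 to 2.13 (FSTL3 to INHBA). Without treatment replicate 7, the only library left out singly for the correlations, 3 pairs of genes were correlated past the threshold in place of 0. Library size alone with that library left out was an alternative chosen after seeing the data. Depth limits INHA and AMH in the leukocyte-rich libraries, at 5 to 41 and 12 to 75 counts outside treatment replicate 1.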
